A study of Mus musculus with 12 samples.

Results

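Potassium channel genes were followed in the brains of newborn mice that carry or lack the kinase KIS, the product of Uhmk1. The genes were taken by name, as all symbols that begin with Kcn among the main probesets of the array. Of 76 such symbols, Kcnj9, Kcnj10 and Kcnk2 were left out because they lie on chromosome 1 between 152.1 and 192.1 Mb, around Uhmk1. This left 73 genes of 17550 in the table, with 710 probesets. On the far side of this window Kcnk2, whose probesets begin at 191032837, was the nearest gene left out and Kcnh1, at 194014917, the nearest one kept. Total brain was taken from 12 newborn females, 6 KIS +/+ (wildtype) and 6 KIS -/- (KIS-ko), 1 pair of littermates from each of 6 litters, and each brain was hybridized to 1 exon array. The KIS-ko line had been backcrossed to C57BL6/N, the sources used here name no tissue-specific driver for the knockout, and neither genotype received a treatment. The array reads RNA of the whole organ, so that fewer cells of a type and less RNA per cell cannot be told apart.

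Potassium channels let potassium leave the cell and so set the resting potential of neurons, end the action potential and limit its repetition. The voltage-gated families Kcna to Kcnd, Kcnh and Kcnq open on depolarization, the Kcnm and Kcnn channels on a rise of calcium, the inward rectifiers (Kcnj) pass current near rest, and the 2-pore channels (Kcnk) carry leak. Accessory proteins of the Kcnab, Kcne and Kcnip families bind the pore subunits and alter their gating or transport. Many of these channels are known to become more abundant in the brain after birth, as neurons mature.

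The labels were checked on the targeted gene. The gene value of Uhmk1, the average of log2(signal + 16) over its probesets, lay between 10.89 and 11.07 in wildtype and between 8.62 and 8.98 in KIS-ko brains. It fell by 2.11 on the log2 scale in KIS-ko brains, and was lower in 6 of 6 litters (limma, adjusted p = 2.91e-07). Neuron markers were far above background, with 55 of 55 probesets of Tubb3, Snap25 and the other listed genes. Correlations between arrays lay between 0.977 and 0.990. Array medians ran from 460 to 526 signal units, and both arrays of litter 5 were among the dimmer ones, at 473 in wildtype and 460 in KIS-ko. The median was lower in the KIS-ko array of 5 of 6 litters, by 0.058 ± 0.093 (SD, n = 6, two-sided p = 0.188 by an exact sign-flip permutation) on the log2 scale. This shift stands beside every direction given below, and its part in them was not tested.

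The level at birth was read as the share of a gene's probesets whose mean signal in wildtype brains exceeded 714, the 95th percentile of 5222 intron control probesets. Brightness itself was not compared between probesets or genes, since each probeset has its own response. Above this background lay 276 of the 710 potassium channel probesets (38.9%), against 41.8% of all main probesets. Measured against the median intron control of 117 the order turned, with 84.9% of channel and 81.7% of all main probesets above it. In single arrays, each set against its own intron controls, the share ran from 34.6% to 43.7%. Of the 73 genes, 47 had at least 1 probeset above background and 26 had none. In 7 genes every probeset was above background, among them Kcna2, Kcna3, Kcnd2, Kcnd3, Kcnip3 and Kcnk3. Subfamilies of several genes differed widely in this share, from 75.0% of probesets in Kcnd and 63.6% in Kcnm to 13% in the electrically silent subunits and 11.3% in Kcnj. These shares belong to this cut, and those of the same subfamilies lay closer together against the median intron control. Genes with no probeset above background then ranged from 0 of 3 probesets in Kcnj1 to 5 of 5 in Kcnj11 and 8 of 8 in Kcnk4.

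**Figure D1:**
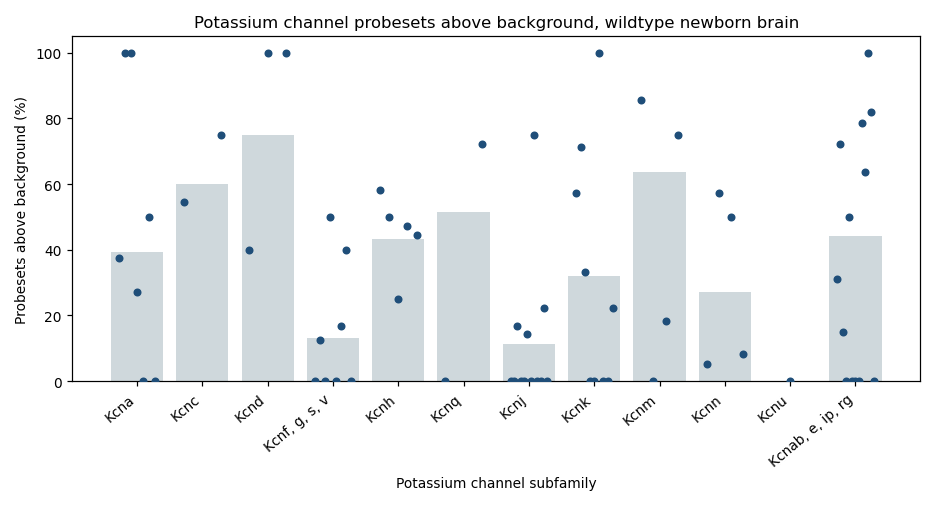
Share of probesets above background (vertical axis, %) in wildtype newborn brain by potassium channel subfamily (horizontal axis). Bars give the share over all probesets of a subfamily and points single genes, 70 of the 73. Among the subfamilies of several genes Kcnd and Kcnm had the highest bars, while 8 of the 12 Kcnj genes and Kcnu1 lay at 0.

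The start regions of the genes were set beside these shares, since CG-rich starts are known from broadly used genes. RefSeq (GRCm38.p6) gave the bases before the start for 55 of the 73 genes, 12 of them with several starts, over which the CG count was averaged. The 17 matched genes with over 50% of their probesets above background had a median of 15 CG steps in the 250 bases before the start, the 19 genes with some but no more than 50% had 10, and the 19 genes with none had 5. An average of at least 10 CG steps was found in 11, 10 and 3 of them (64.7%, 52.6% and 15.8%). By the start with the most CG steps, a reading added after the averages were seen, the counts were 14, 11 and 4 (82.4%, 57.9% and 21.1%). Over all matched genes of the table the same average held for 82.0% of the genes with over 50% above and 23.8% of those with none, against 57.5% of all, and by the start with the most CG steps for 85.2%, 25.2% and 60.1%. By either reading the genes with over 50% above had a larger share than those with none, among channel genes and all genes alike. The class between them was not read over all genes. CG was searched as the letters CG, which read the same on both strands. The starts of 4 genes are shown, a pair that follows this order and a pair that runs against it, chosen after their values were seen, with every CG in capitals. Kcna3 (chr3:107035912-107036161, plus strand) had 31 CG steps and 3 of 3 probesets above background, and Kcna7 (chr7:45405710-45405959, plus strand) had 1 and 0 of 10. Kcnj4 (chr15:79505242-79505491, minus strand) had 35 CG steps with 0 of 4 probesets above, and Kcnk1 (chr8:125994852-125995101, plus strand) had 0 CG steps with 4 of 7 above.
Kcna3: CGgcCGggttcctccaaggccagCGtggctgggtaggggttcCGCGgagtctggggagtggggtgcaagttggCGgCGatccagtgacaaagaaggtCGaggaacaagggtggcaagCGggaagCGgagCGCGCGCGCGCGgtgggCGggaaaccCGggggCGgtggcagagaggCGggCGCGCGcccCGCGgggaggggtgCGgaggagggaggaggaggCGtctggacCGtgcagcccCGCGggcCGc
Kcna7: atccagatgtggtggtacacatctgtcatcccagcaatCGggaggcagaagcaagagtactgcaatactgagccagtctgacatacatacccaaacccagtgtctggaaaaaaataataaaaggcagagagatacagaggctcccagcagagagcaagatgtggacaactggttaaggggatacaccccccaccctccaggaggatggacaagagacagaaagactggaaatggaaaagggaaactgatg
Kcnj4: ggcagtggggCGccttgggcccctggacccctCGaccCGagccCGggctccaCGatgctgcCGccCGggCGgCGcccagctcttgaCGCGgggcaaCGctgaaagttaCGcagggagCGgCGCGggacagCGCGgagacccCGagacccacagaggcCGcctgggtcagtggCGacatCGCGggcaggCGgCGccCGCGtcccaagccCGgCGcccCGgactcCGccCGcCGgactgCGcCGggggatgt
Kcnk1: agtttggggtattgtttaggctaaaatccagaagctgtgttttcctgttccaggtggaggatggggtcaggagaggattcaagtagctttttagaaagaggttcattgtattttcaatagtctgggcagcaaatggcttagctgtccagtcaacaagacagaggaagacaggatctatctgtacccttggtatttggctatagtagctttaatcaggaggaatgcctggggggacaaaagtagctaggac
The first and the third of these sequences are rich in CG, with stretches free of it in between, while the last holds none.

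Between the genotypes no potassium channel gene passed the threshold. After Benjamini-Hochberg adjustment over 17279 genes, limma with the litter as a block called 0 of 73 genes, against 0.00579% of all genes, a share that is Uhmk1 alone. The lowest adjusted p among the 73 was 0.685. At an unadjusted p under 0.05 there were 2 genes, Kcnc4 and Kcnk18, or 2.74% of 73 against 6.16% of all genes. The 1 of them that was lower stands against 4.34% of all genes. As deposited, 48 of the 73 genes (65.8%) had a lower mean in KIS-ko brains, against 69.8% of all genes, but only 23 of 73 were lower once each array was centred on its median (all genes 37.8%) and 31 after a further quantile normalization (all genes 48.6%). The median difference, KIS-ko minus wildtype, was -0.035 on the log2 scale against -0.036 over all genes, and 0.021 against 0.020 with the arrays centred. Centring raised the difference of each channel gene by 0.056, so that differences below 0 in the text shrank or turned and those above 0 grew. With the median over a gene's probesets in place of the mean, 43 genes were lower (58.9%, against 66.5% of all genes) and the median difference was -0.017, against -0.035 over all genes. No gene had wildtype and KIS-ko values that failed to overlap (0 of 73, against 0.208% of all genes).

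The intervals say how large a change could have been missed. The 95% interval reached to either side of a gene's difference by a median of 0.127 on the log2 scale (0.131 over all genes). It was 0.118 in the 22 genes with over 50% of their probesets above background and 0.153 in the 26 genes with none. Over the 73 genes the bounds reached from -0.377 in Kcnj2 to 0.468 in Kcnk18.

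**Figure D2:**
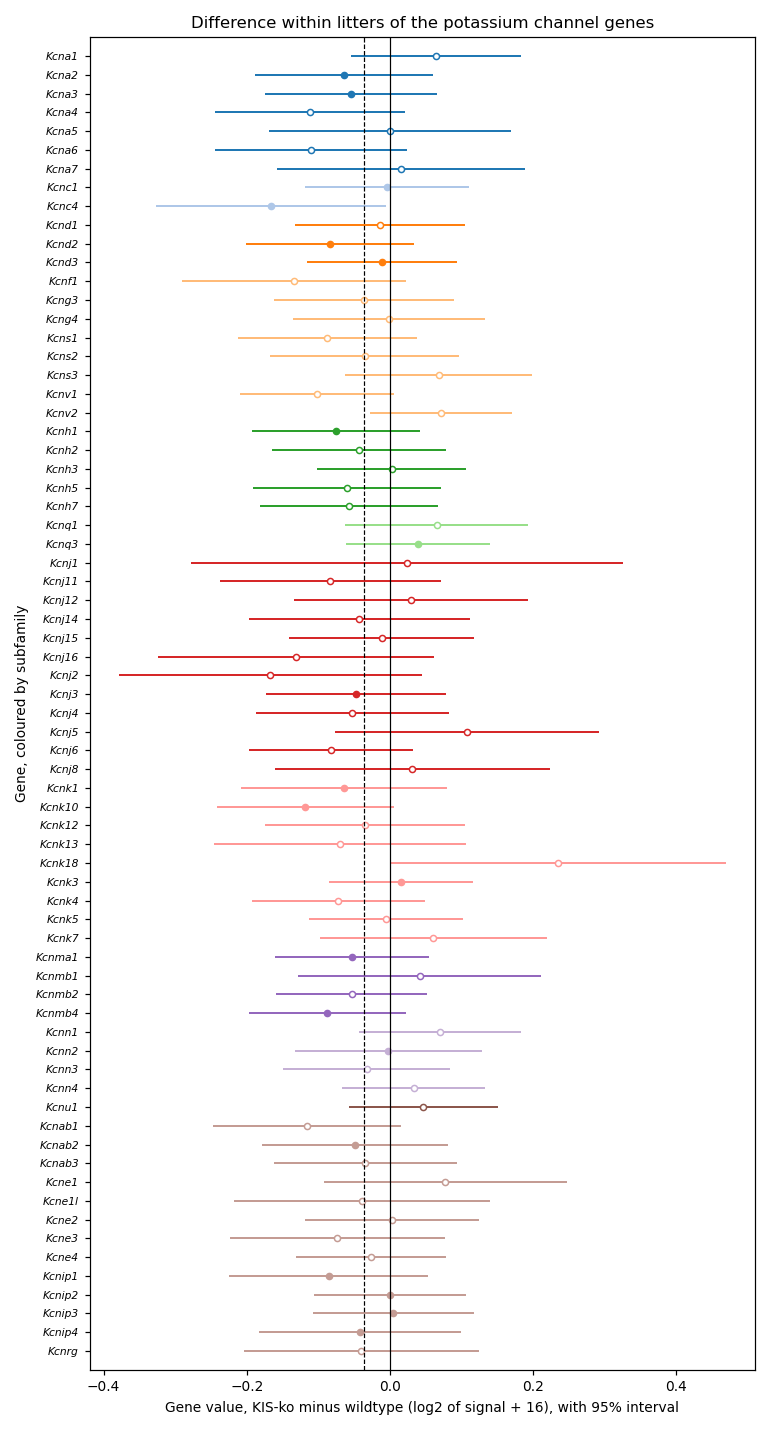
Difference of the gene value, KIS-ko minus wildtype, on the log2 scale (horizontal axis) for 70 of the 73 genes (vertical axis, coloured by subfamily), with 95% intervals from limma over 6 litters. Filled points are genes with over 50% of their probesets above background, the solid line is 0 and the dashed line the median of all genes, -0.036. Only the intervals of Kcnc4 and Kcnk18 leave out 0.

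Kcnc4 encodes Kv3.4, an inactivating member of the Kv3 family. Its gene values in wildtype brains ran from 9.93 over a median of 10.08 to 10.22, and in KIS-ko brains from 9.69 over 9.93 to 10.10. The lowest values were those of the KIS-ko brains of litters 2 and 6, and the genotypes overlapped. The difference was -0.17 (SE 0.072, 95% interval -0.325 to -0.007, limma, adjusted p = 0.685), with a lower value in the KIS-ko brain of 5 of 6 litters. Litter 2 alone differed by -0.53, and without it the difference was -0.093. All 8 probesets of Kcnc4 were lower on average in KIS-ko brains, with differences from -0.031 to -0.444 on the log2 scale, and 6 of them were above background. With the arrays centred the difference was -0.11 and was lower in 4 of 6 litters. The lowest p of all 675 channel probesets tested was that of a Kcnc4 probeset at 3:107261727-107261792, at the 5' end of the gene's probesets on the minus strand. Its mean signal was 208 in wildtype and 151 in KIS-ko brains, both under the background level of 714 (limma, adjusted p = 0.686).

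Kcnk18 encodes TRESK, a leak channel best known from sensory ganglia. Its values ran from 6.68 over 6.84 to 7.08 in wildtype and from 6.72 over 7.12 to 7.39 in KIS-ko brains. The KIS-ko brain was higher in 5 of 6 litters, litter 5 went the other way, and the genotypes overlapped. The difference was 0.24 (SE 0.105, 95% interval 0.003 to 0.468, limma, adjusted p = 0.685), and 0.36 without litter 5 or 0.158 without litter 6. None of its 3 probesets was above background, and the probeset with the largest difference had mean signals of 24.2 and 41.6, below the median intron control of 117.

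A difference of one sign in all 6 litters was seen in 4 genes (5.48%, against 2.52% of all genes). Kcnk10, which encodes the mechanosensitive leak channel TREK-2, ran from 9.50 over 9.80 to 9.99 in wildtype and from 9.49 over 9.63 to 9.96 in KIS-ko brains. Kcnab1, a cytoplasmic beta subunit of Kv1 channels, ran from 8.82 over 9.09 to 9.30 and from 8.70 over 9.03 to 9.11. Kcnmb4, the neuronal beta subunit of the BK channel, ran from 9.81 over 9.88 to 9.96 and from 9.73 over 9.81 to 9.84. In these 3 genes the KIS-ko brain was below its littermate each time, although in each of them several litters were almost level and the genotypes overlapped. Lower in all 6 litters were 1.6% of all genes. The differences were -0.12 in Kcnk10 (SE 0.055), -0.12 in Kcnab1 (SE 0.059) and -0.087 in Kcnmb4 (SE 0.049, limma, adjusted p = 0.685 for each). Litter 6 alone differed by -0.39 in Kcnab1, and without it the difference was -0.060. With the arrays centred, each of the 3 genes was lower in 4 of 6 litters, and the differences were -0.062 in Kcnk10, -0.060 in Kcnab1 and -0.032 in Kcnmb4. The fourth gene, Kcnv2, a silent subunit known from photoreceptors, was higher in 6 of 6 litters, from 6.90 over 6.97 to 7.13 in wildtype and from 6.98 over 7.05 to 7.14 in KIS-ko brains, by 0.071 (SE 0.044, limma, adjusted p = 0.685). With the arrays centred it was higher in 5 of 6 litters, by 0.127. None of the 5 Kcnv2 probesets was above background.

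**Figure D3:**
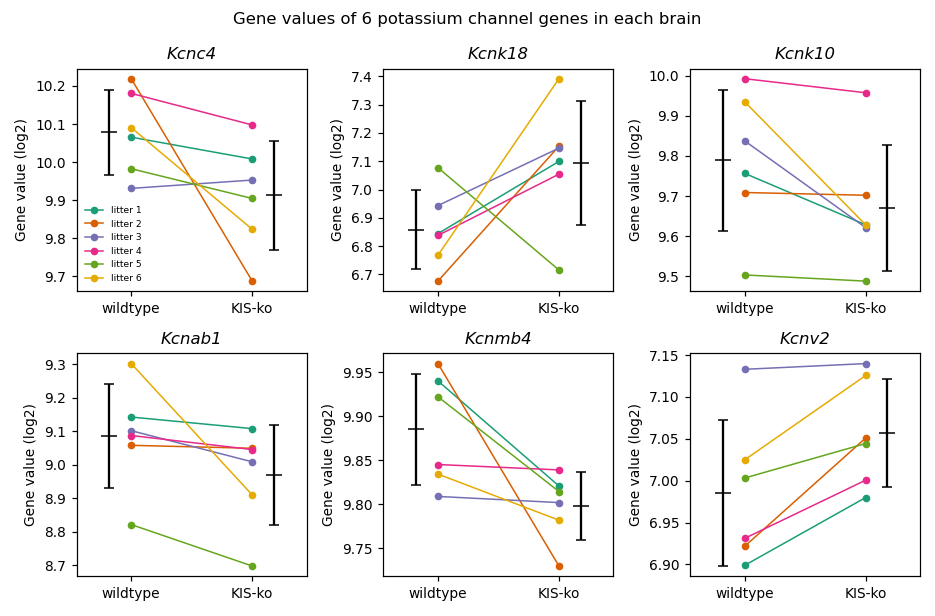
Gene values on the log2 scale (vertical axes, each with its own range) of the 12 brains for the 2 genes at an unadjusted p under 0.05 and the 4 genes with one sign in all litters. Lines join littermates, and black marks give the mean and SD of each genotype (n = 6). The spans of the genotypes overlap in every panel.

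The methods' own measure of change is the mean of the 6 ratios of KIS-ko over wildtype signal of each probeset, averaged over the probesets of a gene with weights that fall with their spread between pairs. By this measure 18 of the 73 genes (24.7%) differed by at least 6%, against 26.4% of all genes. Lower by that much were 5 genes (all genes 8.84%), and the other 13 were higher. The measure carries no test. Of the 26 genes without a probeset above background 11 reached 6% (42.3%, all such genes 50.4%), and of the 22 with over 50% above only Kcnc4 did, at 0.92 ± 0.11 (SD over pairs, n = 6; 4.55%, all such genes 6.69%). The highest ratios, 1.27 ± 0.30 in Kcnk18, 1.16 ± 0.21 in Kcne1 and 1.13 ± 0.18 in Kcnj5, all came from genes with no probeset above background. Of the 22 well detected genes, 17 were lower in KIS-ko brains as deposited (all such genes 86.6%) and 8 with the arrays centred. Of the 26 genes with no probeset above background 14 were lower (all such genes 47.9%), and 6 with the arrays centred. With the arrays centred 37.8% of all genes were lower, and the share among all genes of like detection was not computed.

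**Figure D4:**
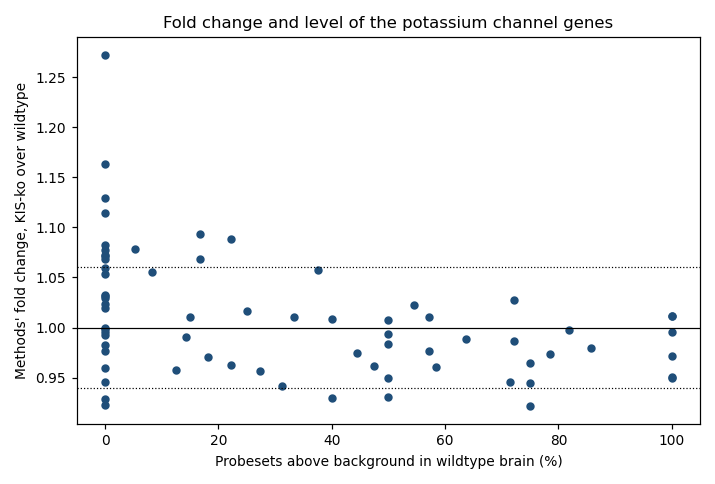
Fold change of 70 of the 73 genes by the methods' measure (vertical axis, KIS-ko over wildtype, linear scale) against the share of its probesets above background in wildtype brain (horizontal axis, %). Dotted lines mark a change of 6% either way. Folds spread from 0.92 to 1.27 in genes with no probeset above background, and of the genes with over 50% above only Kcnc4 lies outside the dotted lines.

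Among the Kcna genes, the delayed rectifiers and A-type channels of axons and nerve endings, 20 of 51 probesets were above background. Kcna2, which forms Kv1.2, had 6 of 6, Kcna6 had 5 of 10, Kcna1 had 3 of 8 and Kcna4 had 3 of 11, while Kcna5, best known from the heart, and Kcna7, from muscle, had none. Kcna2 ran from 10.30 over 10.35 to 10.42 in wildtype and from 10.19 over 10.27 to 10.43 in KIS-ko brains. The KIS-ko median lay below every wildtype brain, the highest value of all was also a KIS-ko brain, and the difference was -0.064 (95% interval -0.187 to 0.059), or -0.036 without litter 1, -0.040 without litter 2 and -0.100 without litter 4. Kcna4 and Kcna6 had the lowest p of the subfamily, with differences of -0.11 (SE 0.059) and -0.11 (SE 0.060, limma, adjusted p = 0.685 for both), and each was lower in 5 of 6 litters. Without litter 6 the difference of Kcna6 was -0.063. Kcna1, which encodes Kv1.1, ran from 8.78 over 8.92 to 9.01 and from 8.85 over 9.03 to 9.10, a difference of 0.065 (SE 0.053), or 0.033 without litter 3. Of the 7 genes 4 were lower as deposited and 3 with the arrays centred.

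Beside Kcnc4, the Kv3 gene Kcnc1, which serves fast firing, had 6 of 11 probesets above background. Kcnc1 ran from 9.48 over 9.53 to 9.56 and from 9.38 over 9.52 to 9.70, with a difference of -0.0044 (95% interval -0.118 to 0.109) whose sign turned to 0.051 with the arrays centred. Its median was nearly the same in the genotypes, and the KIS-ko brains spread more widely.

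The Kv4 genes (Kcnd), which carry the A-type current of dendrites, had the largest share of probesets above background of the subfamilies with more than 1 gene, 18 of 24. All 7 probesets of Kcnd2 and all 7 of Kcnd3 were above, and 4 of 10 of the X-linked Kcnd1. Kcnd2 ran from 11.40 over 11.70 to 11.82 in wildtype and from 11.43 over 11.63 to 11.72 in KIS-ko brains. All 7 of its probesets were lower on average in KIS-ko brains, and the gene differed by -0.083 (SE 0.052, 95% interval -0.200 to 0.033, limma, adjusted p = 0.685). As deposited Kcnd2 was lower in 4 of 6 litters, and the difference was -0.028 with the arrays centred. Kcnd3 ran from 11.11 over 11.16 to 11.25 and from 11.11 over 11.14 to 11.26, with a difference of -0.011 (95% interval -0.114 to 0.092). All 3 Kcnd genes were lower as deposited, and 1 of 3, Kcnd2, with the arrays centred.

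The partners of Kv4 channels were also detected. The calcium-binding Kcnip proteins, which bind the Kv4 subunits from inside the cell, had 10 of 10 probesets above background in Kcnip3, 9 of 11 in Kcnip4, 11 of 14 in Kcnip1 and 7 of 11 in Kcnip2. Kcnip1 ran from 10.53 over 10.66 to 10.75 and from 10.39 over 10.59 to 10.70, with 13 of 14 probesets lower and a difference of -0.085 (SE 0.062, limma, adjusted p = 0.690), or -0.136 without litter 4 and -0.055 without litter 6. It was lower in 4 of 6 litters as deposited, and the difference was -0.030 with the arrays centred. Kcnip4 differed by -0.041 (95% interval -0.181 to 0.098) and Kcnip3 by 0.0051 (95% interval -0.105 to 0.116), so that neither left the spread between litters. The beta subunit Kcnab2 had 13 of 18 probesets above background, and differed by -0.049 (95% interval -0.177 to 0.080), of which -0.0030 was left without litter 2, while it was -0.075 without litter 3. The Kcne genes, small single-pass subunits best known from heart and epithelia, were dim except Kcne1l, with 2 of 4 probesets above. Kcne2, which is known from the choroid plexus, had 0 of 5 above, and differed by 0.0035 (95% interval -0.117 to 0.123). Of the 13 accessory genes 9 were lower as deposited and 3 with the arrays centred.

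The silent subunits Kcnf1, Kcng, Kcns and Kcnv, which give no current alone and join other voltage-gated subunits, had 6 of 46 probesets above background in 8 genes. Those 6 were spread over Kcns1, Kcnv1, Kcng3 and Kcns3. Kcnv1 ran from 9.12 over 9.32 to 9.48 in wildtype and from 9.05 over 9.16 to 9.43 in KIS-ko brains. The KIS-ko brain was lower in 5 of 6 litters, with overlapping groups, and the difference was -0.10 (SE 0.048, limma, adjusted p = 0.685). Kcnf1, with 0 of 6 probesets above, differed by -0.13 (SE 0.070, limma, adjusted p = 0.685), and was lower in 4 of 6 litters, with -0.079 without litter 6. In this subfamily 6 of 8 genes were lower as deposited and 3 with the arrays centred.

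The Kcnh genes, which form the EAG, ERG and ELK channels, had 41 of 95 probesets above background, and each of the 5 genes had some. Kcnh1, the gene nearest to the excluded window, had 7 of 12 above and differed by -0.075 (SE 0.052, limma, adjusted p = 0.687), or -0.048 without litter 6. Kcnh7, the neuronal ERG3 subunit, had 8 of 18 above and ran from 9.26 over 9.51 to 9.61 in wildtype and from 9.20 over 9.47 to 9.61 in KIS-ko brains. Its spans nearly coincided, with a difference of -0.057 (95% interval -0.180 to 0.066), which was -0.010 without litter 6. Of the 5 genes 4 were lower as deposited and 3 with the arrays centred.

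Of the Kcnq genes, Kcnq3, a subunit of channels that restrain repetitive firing, had 13 of 18 probesets above background. Kcnq1, the cardiac and epithelial member, had 0 of 19. Kcnq3 ran from 9.94 over 10.11 to 10.18 and from 9.997 over 10.14 to 10.25, and was higher in the KIS-ko brain of 5 of 6 litters by 0.040 (95% interval -0.060 to 0.139). With the arrays centred Kcnq3 differed by 0.095 (SE 0.036) at an unadjusted p of 0.028 and an adjusted p of 0.733 (limma).

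The inward rectifiers (Kcnj) were the dimmest large subfamily, with 7 of 62 probesets above background in 12 genes. Kcnj3, which encodes the G protein-gated subunit GIRK1, had 3 of 4 and was the one well detected gene. Kcnj6, its partner GIRK2, had 2 of 9, and Kcnj12 and Kcnj16 had 1 each. The other 8 genes, among them the KATP pore subunits Kcnj11 and Kcnj8, the latter known from pericytes, had none. Kcnj3 ran from 10.63 over 10.69 to 10.81 in wildtype and from 10.52 over 10.56 to 10.97 in KIS-ko brains. The KIS-ko median lay below every wildtype brain, the highest value of all was also a KIS-ko brain, and the difference was -0.047 (95% interval -0.172 to 0.078), or -0.015 without litter 6 and -0.089 without litter 4. Kcnj6 differed by -0.082 (SE 0.051) and was lower in 5 of 6 litters, Kcnj11 by -0.083 (SE 0.069) and Kcnj8 by 0.032 (SE 0.086). The difference of Kcnj6 was -0.124 without litter 3, that of Kcnj11 ranged from -0.136 without litter 5 over -0.049 without litter 6 to -0.030 without litter 3, and that of Kcnj8 from -0.048 without litter 4 to 0.095 without litter 6. Kcnj2, which forms the strong rectifier Kir2.1, had the lowest mean difference of the 73 genes, -0.17, with an SE of 0.095 (limma, adjusted p = 0.685) and 3 of 6 litters lower, and was -0.074 without litter 1. Of the 12 genes 8 were lower as deposited and 4 with the arrays centred.

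Of the 2-pore channels (Kcnk), 18 of 56 probesets were above background. Kcnk3, which encodes the acid-sensitive channel TASK-1, had 5 of 5, Kcnk10 had 5 of 7 and Kcnk1, for TWIK-1, had 4 of 7, while the mechanosensitive Kcnk4 had 0 of 8. Kcnk3 ran from 9.86 over 9.91 to 10.16 in wildtype and from 9.88 over 9.96 to 10.08 in KIS-ko brains, a difference of 0.016 (95% interval -0.084 to 0.115) that ranged from 0.0042 without litter 2 to 0.034 without litter 5. Kcnk1 ran from 9.32 over 9.44 to 9.57 and from 9.22 over 9.37 to 9.55, a difference of -0.064 (95% interval -0.206 to 0.078). Litter 2 alone differed by -0.349 in Kcnk1, and without it the difference was -0.0074, while it was -0.104 without litter 4. In Kcnk3 and Kcnk1 alike the genotypes covered nearly the same span. Of the 9 genes 6 were lower as deposited and 4 with the arrays centred.

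Among the calcium-activated channels, Kcnma1, the pore of the BK channel, had 30 of 35 probesets above background. It ran from 10.57 over 10.66 to 10.71 in wildtype and from 10.47 over 10.62 to 10.72 in KIS-ko brains, with 25 of 35 probesets lower and a difference of -0.053 (SE 0.048, 95% interval -0.159 to 0.053), or -0.026 without litter 6. Kcnma1 was lower in the KIS-ko brain of 4 of 6 litters. Of its beta subunits Kcnmb4 had 3 of 4 probesets above, Kcnmb2 had 2 of 11, and the smooth muscle subunit Kcnmb1 had none. The small-conductance channels Kcnn2 and Kcnn3 had 8 of 14 and 5 of 10 above, Kcnn1 and Kcnn4 had 1 each. Kcnn2 differed by -0.0019 (95% interval -0.131 to 0.127), a value at 0 whose sign turned with centring. Kcnn1 ran from 7.96 over 8.08 to 8.17 and from 8.01 over 8.13 to 8.26, and was higher in the KIS-ko brain of 5 of 6 litters, by 0.070 (SE 0.050, limma, adjusted p = 0.688), or 0.046 without litter 1. Kcnu1, the sperm channel SLO3, had 0 of 29 probesets above background, with values from 6.80 to 6.98 in wildtype brains and a difference of 0.047 (95% interval -0.056 to 0.149), which was 0.0093 without litter 6. Of the 4 Kcnm genes 3 were lower as deposited and 1 with the arrays centred, and of the 4 Kcnn genes 2 and none.

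At the level of single exons, 40 of the 675 channel probesets tested had an unadjusted p under 0.05 (5.93%, against 6.63% of all probesets), 26 of them lower in KIS-ko brains. The share lower was not computed over all probesets, but of the 1065 genes of the table at such a p 750 were lower. The 40 probesets lay in 31 genes, and 11 of them were above background, against 276 of all 710 channel probesets. Kcng3 had 3 of them, and Kcna4, Kcnab1, Kcnc4, Kcnk4, Kcnmb2, Kcnq1 and Kcnq3 had 2 each. After adjustment over all probesets no channel probeset remained (limma, 0 of 675, lowest adjusted p = 0.686, against 0.00487% of all probesets). A Kcna2 probeset at 3:106906102-106906132 was above the background of 714 in wildtype brains, with a mean signal of 779, and under it in KIS-ko brains, with 667, a difference of -0.22 on the log2 scale (SE 0.062). Probesets of a gene share its transcripts and are not independent replicates.

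Both the choice of probesets and the choice of litters moved the unadjusted counts. With probesets left out whose mean over the 12 arrays was under background, 48 genes remained and 6 had an unadjusted p under 0.05 (12.5%, against 5.64% of all genes), none past the adjusted threshold (limma, adjusted p = 0.748 for each). Lower were Kcns1 (-0.25, SE 0.078), Kcnj16 (-0.24, SE 0.088), Kcnv1 (-0.16, SE 0.055) and Kcnab1 (-0.12, SE 0.045). Of these Kcnj16 had only 1 of 7 probesets above background in wildtype brains. Kcnj12, read from 1 probeset, was higher (0.22, SE 0.087). The other one, Kcng3, entered through 1 probeset with mean signals of 677 in wildtype, under background, and 896 in KIS-ko brains, so that the filter itself fixed its direction. Another Kcng3 probeset, left out here, went the other way with 757 and 652, and the count of 6 is given as a description. By the methods' measure 14 of these 48 genes reached 6%, against 17% of all genes under this setting. Without litter 4, whose KIS-ko array was the brighter of the pair, 10 of the 73 genes had an unadjusted p under 0.05, all lower, against 23.3% of all genes, and 27 reached 6%, against 44.2% of all genes. Without litter 6 there were 0 at an unadjusted p under 0.05, against 3.35% of all genes, and 14 past 6%, against 19.3% of all genes.

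In some channel genes litters differed more than littermates did. In 7 of the 73 genes (9.59%, against 4.29% of all genes) the SD of the litter means was at least 2 times the SD within pairs. Among them were Kcnip3, Kcnv1, Kcnmb2, Kcnv2, Kcnq3 and Kcnk3. Kcnip3, known as KChIP3 or DREAM and also a calcium-dependent transcriptional repressor, had the highest such ratio, 3.16. Its wildtype values in litters 1 to 6 were 11.53, 11.33, 11.37, 11.26, 10.95 and 11.53, and its KIS-ko values 11.51, 11.19, 11.48, 11.34, 10.99 and 11.48. Littermates differed by -0.144 to 0.110, while litter 5 lay lower than every other brain. Both brains of litter 5 were also the lowest of their genotype in Kcnd2 (11.40 and 11.43), Kcna6 (9.27 and 9.31), Kcnk10 (9.50 and 9.49) and Kcnmb2 (8.55 and 8.45).

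In all, both brains of litter 5 were the lowest of their genotype in 14 of the 73 genes (19.2%, against 17.2% of all genes), among them Kcna4, Kcnh7, Kcnma1, Kcnip4 and Kcnq3. Each of the other litters held this place in 1 or 2 genes. With the arrays centred the count for litter 5 was 10 (13.7%, against 9.84% of all genes), and Kcnip3, Kcnd2, Kcna6, Kcnk10 and Kcnmb2 were still among them. Both brains of litter 5 were the highest of their genotype in 3 channel genes as deposited (4.11%, against 4.23% of all genes), but in 13 with the arrays centred (17.8%, against 16.6%), so that centring moved the balance from lowest to highest. Kcnk3 was among the highest under both, with 10.16 and 10.08 in litter 5 as deposited. Litter 4 was highest in both genotypes in 8 channel genes (11%, against 3.28% of all genes), among them Kcng3, Kcnj3, Kcnj6, Kcnk10, Kcnn3, Kcnq3 and Kcnv1. With the arrays centred this count was 7 (9.59%, against 3.11% of all genes). Litter 3 was highest in 4 channel genes as deposited (5.48%, against 0.978% of all genes) and in 1 with the arrays centred (1.37%, against 1.91%). The age in hours, the weight and the handling of each litter are not in the labels, and their part in these values was not tested.

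**Figure D5:**
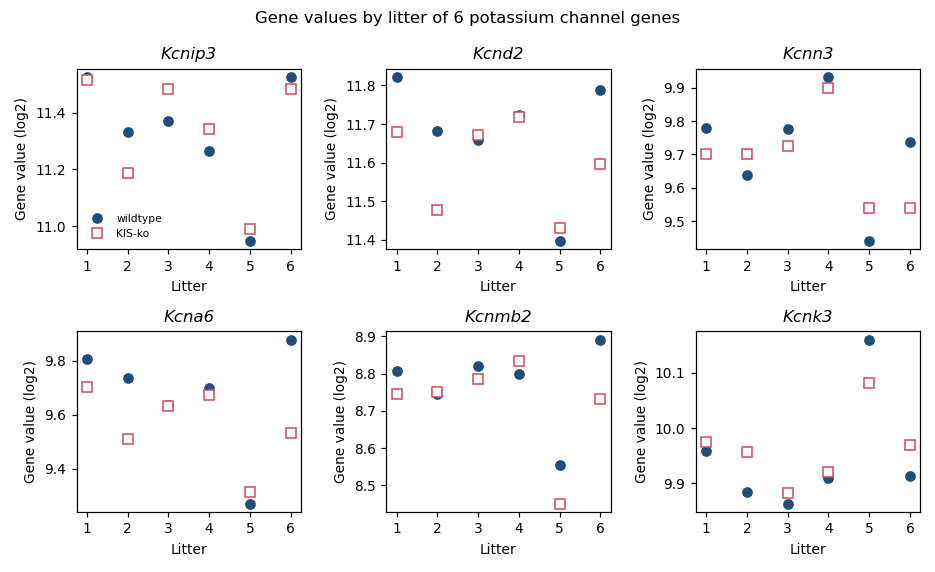
Gene values on the log2 scale (vertical axes, each with its own range) by litter (horizontal axes) for 6 genes, with wildtype brains as filled circles and KIS-ko brains as open squares. Littermates lie close together in Kcnip3 and farther apart in Kcna6 and Kcnd2. Both brains of litter 5 are the lowest of their genotype in Kcnip3, Kcnd2, Kcna6 and Kcnmb2 and the highest in Kcnk3.

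Within litters, the median difference of the 73 genes was -0.041, -0.048, 0.017, 0.035, -0.017 and -0.108 in litters 1 to 6. Over all genes it was -0.046, -0.086, 0.0023, 0.071, -0.052 and -0.112. Lower in the KIS-ko brain were 46, 46, 30, 31, 41 and 55 of the 73 genes. The sign of the channel genes' median was that of all genes in each litter, and litters 3 and 4 went against the other 4.

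Other genes that work with potassium channels were read from a list of 31 accessory, clustering and related genes, of which 25 were tested. Of these 20 were lower in KIS-ko brains as deposited (all genes 69.8%) and 8 with the arrays centred (all genes 37.8%), 2 had an unadjusted p under 0.05 (all genes 6.16%) and 0 passed the adjusted threshold (limma, lowest adjusted p = 0.685). The 2 were Dpp10, an auxiliary subunit of Kv4 channels, which differed by -0.13 (SE 0.061), and Rest, a repressor of neuronal genes, which differed by -0.15 (SE 0.066). Each was lower in 5 of 6 litters, and without litter 6 the difference of Dpp10 was -0.084. Dpp6, the other Kv4 partner of that family, differed by -0.062 (SE 0.046), and the pacemaker channel gene Hcn2 by -0.053 (SE 0.051), or -0.020 without litter 2. The list's median was -0.052, against -0.036 over all genes, and 0.0037 with the arrays centred.

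Markers of the cell types that could carry these channels were set beside them. Over all genes 69.8% were lower as deposited and 37.8% with the arrays centred. Of all genes with over 50% of their probesets above background 86.6% were lower as deposited. Of 5 neuron markers tested 4 were lower in KIS-ko brains (median -0.035) and 1 with the arrays centred. Their mean gene value ran from 12.85 to 12.96 in wildtype and from 12.81 to 12.92 in KIS-ko brains. All 6 astrocyte and radial glia markers were lower (median -0.088), and 5 of 6 with the arrays centred, with a mean gene value from 11.37 to 11.59 in wildtype and from 11.29 to 11.50 in KIS-ko brains. None of these neuron and glia markers had an unadjusted p under 0.05 or passed the adjusted threshold (limma). Of the 6 choroid plexus markers, beside which Kcne2 can be read, 3 were lower and 1 with the arrays centred, and of the 5 pericyte markers, beside Kcnj8, 4 were lower and 2 with the arrays centred. The pericyte marker Rgs5 alone of these had an unadjusted p under 0.05, with a difference of -0.165 (SE 0.066, limma, adjusted p = 0.685). The part of cell composition in the channel genes' values was not tested.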

How the data were processed

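The authors extracted total RNA from each brain, hybridized it to Affymetrix Mouse Exon 1.0 ST arrays, quantile-normalized the arrays at the exon level in the Affymetrix Expression Console and estimated probeset signals with PLIER. The deposited values are intensities on the linear scale, 1 per probeset and array. Positions are those of the table, whose genome build is not given in the sources used here, while the printed start regions carry coordinates of GRCm38.p6, and the builds were not mixed.

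Main probesets with a symbol were used. As in the methods, a probeset whose standard deviation exceeded 0.4 of its mean among the brains of a genotype was dropped, which removed 35 of the 710 Kcn probesets and no Kcn gene. Of the 710, 652 match 1 place by the table's own mark. The gene value was the mean over probesets of log2(signal + 16). It was fitted in limma 3.58.1 (R 4.3.3) with litter and genotype as terms and moderated by eBayes, and p-values were adjusted by Benjamini-Hochberg over all genes, at a threshold of 0.05. Tables and plots were made in Python 3.11.15 with pandas 2.3.3, numpy 2.4.6 and matplotlib 3.10.9. The fit was tested on simulated data. The precision is limited by the number of arrays and by signal over background, and read depth does not apply.

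The pairing comes from the litter in the labels. Deviations of littermates from their genotype means correlated by 0.272, -0.059, 0.136, -0.106, 0.473 and -0.114 in the 6 litters. Brains of different litters averaged -0.019, with single values from -0.425 to 0.282. Deviations from a genotype mean cancel out over the litters. That average is therefore tied to the littermate values and is no separate check of the pairing.

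The members and lists were chosen with earlier results of these data known. Named were a list of channel genes, the 2 genes of lowest p in each subfamily, genes with one sign in all litters and the 3 well detected genes with the widest spread in wildtype brains, 37 genes reported here. Others were named for their probesets above background or their litter pattern after their values were seen. The listed Kcnj13, Kcnk9 and Kcnt1 were not analysed here, and some genes that enter the counts are not reported here singly. The alternatives dropped the litter from the fit, changed the pseudocount to 1 or 64, kept every probeset whatever its spread, left out dim probesets, centred the arrays or repeated the quantile normalization, took the gene value as a median, used probesets that match 1 place, replaced the mean ratio by a ratio of group means, set the background at the median intron control, or left out each litter in turn. The centred counts of litters 3, 4 and 5 were added after seeing the data.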

Additional observations from a re-analysis of the deposited data

Results flagged for a closer look

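In 3 of 74 groups of 6 brains examined (37 genes, each in both genotypes), 1 brain lay far from the other 5 by Dixon's criterion, which chance meets in about 1 group in 20. All 3 were brains of litter 5. The wildtype brain of litter 5 had a gene value of 8.41 in Kcna4, where the other wildtype brains lay between 8.60 and 8.66. It had 9.26 in Kcnh7, where the others lay between 9.48 and 9.61. The KIS-ko brain of litter 5 had 8.45 in Kcnmb2, where the others lay between 8.73 and 8.83. Without litter 5 the count of channel genes at an unadjusted p under 0.05 was 3 (4.11%, against 6.82% of all genes), and with all litters it was 2 (2.74%, against 6.16%).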

How the results depend on the processing

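No channel gene passed the adjusted threshold under any alternative (limma). Without the litter block, that is, with the pairing ignored, 48 genes were lower, 2 had an unadjusted p under 0.05 and the median was -0.035, as with it. With arrays centred, 23 genes were lower, 4 had an unadjusted p under 0.05 (Kcna1, Kcnn1, Kcnq3 and Kcnv2, all higher; 6.35% of all genes) and the median was 0.021. After a further quantile normalization 31 were lower, 5 had such a p (7.05% of all genes) and the median was 0.012. With dim probesets left out 48 genes remained, of which 30 were lower and 6 had such a p (12.5%, against 5.64% of all genes). These were Kcnab1, Kcnj16, Kcns1 and Kcnv1, lower, and Kcnj12 and Kcng3, higher, the last through a probeset above background in KIS-ko brains only, and 20 probesets had such a p (7.22%, against 5.74% of all probesets). With the median over probesets, and with probesets matching 1 place, 1 gene had such a p (6.31% and 6.44% of all genes). Leaving out each litter, the count of such genes ranged from 0 (without litter 6, 3.35% of all genes) to 10 (without litter 4, 13.7% against 23.3% of all genes, all lower), that of probesets from 23 (without litter 6, 3.43% against 3.92% of all probesets) to 86 (without litter 4, 12.7% against 16.3%), and that of genes past 6% from 14 (without litter 6, 19.3% of all genes) to 28 (without litter 5, 31.4% of all genes), with 27 without litter 4 (44.2% of all genes). Without litter 1 or litter 2 there was 1 such gene (4.19% and 3.76% of all genes). The channel genes' median was -0.015 without litter 6 (all genes -0.022) and -0.039 without litter 4 (all genes -0.057). Measured against the median intron control, 84.9% of channel probesets were above background, against 81.7% of all main probesets, so that the channel share, lower than that of all probesets at the 95th percentile, was higher at the median. The cause of these shifts was not tested.

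Of 561 values of named genes under the alternatives, 43 changed sign. With arrays centred these were Kcnab2 (0.0072), Kcnc1 (0.051), Kcnd1 (0.042), Kcnd3 (0.045), Kcnip4 (0.014), Kcnj3 (0.0085), Kcnma1 (0.0027), Kcnmb2 (0.0025) and Kcnn2 (0.054). After quantile normalization they were Kcnc1 (0.039), Kcnd1 (0.033), Kcnd3 (0.018) and Kcnn2 (0.041). With dim probesets left out they were Kcnc1 (0.0024), Kcnmb2 (0.0091) and Kcnn4 (-0.163). With the median over probesets they were Kcnd3 (0.014), Kcnj8 (-0.042), Kcnk1 (0.027), Kcnn4 (-0.023) and Kcnq3 (-0.034). With probesets matching 1 place they were Kcne2 (-0.0071) and Kcnn2 (0.0034), without the filter Kcnd1 (0.0031), and with a pseudocount of 1 Kcne2 (-0.0046). Over the litters left out, the difference ranged from -0.035 to 0.024 in Kcnc1, -0.038 to 0.048 in Kcnd1, -0.029 to 0.0079 in Kcnd3, -0.012 to 0.049 in Kcne2, -0.016 to 0.035 in Kcnip3, -0.085 to 0.0032 in Kcnip4, -0.048 to 0.095 in Kcnj8 and -0.039 to 0.033 in Kcnn2.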
